A study of Mus musculus with 8 samples.

Results

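The genes described here are those of MHC class II presentation. They are the class II chains H2-Aa, H2-Ab1 and H2-Eb1, the invariant chain Cd74, the peptide exchange subunits H2-DMa and H2-DMb1, the H2-DM inhibitors H2-Oa and H2-Ob, the protease Ctss and the transactivator Ciita. Every probe set that the array annotation joins to one of these 10 symbols was taken, which gave 20 of the 45037 probe sets tested. Of the 20, 17 carry a single symbol and 3 carry several. Both H2-DMb1 probe sets are shared with its neighbour H2-DMb2, and 1 of the 2 H2-Ob probe sets is shared with Gm20506, so H2-DMb1 had no probe set of its own. In 9 of the 10 genes at least 1 probe set was theirs alone.

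MHC class II molecules are pairs of an α and a β chain that show peptides from endosomes to CD4+ T cells. The invariant chain CD74 fills the groove of a new pair and guides it to endosomes, where cathepsin S trims CD74 to a short fragment. H2-DM exchanges that fragment for a peptide, and H2-DO, a pair of H2-Oa and H2-Ob, restrains H2-DM. CIITA is the coactivator that switches on most of these genes at promoters occupied by RFX, CREB and NF-Y factors. IFN-γ is its best known inducer in macrophages.

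Bone marrow-derived macrophages (BMDM) of wild-type C57BL/6J mice were grown in L929 supernatant, a source of macrophage colony stimulating factor, and replated without it on day 7. M2 cells were then given 20 ng/ml of IL-4 (n = 2 arrays), M1 cells 100 ng/ml of LPS together with 20 ng/ml of IFN-γ (n = 3) and M0 cells medium only (n = 3), and RNA was taken after 24 h and hybridized to Affymetrix Mouse 430 2.0 arrays. By its label each array is a biological replicate, and GEO's design text has replicates come from separate mice, whereas the study's methods also speak of in vitro replicates. Each n here is thus a number of arrays, and p-values measure the spread between arrays. M1 cells received both agents together, so a response to LPS cannot be told apart from one to IFN-γ.

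Values are RMA intensities on a linear scale, called units, and no detection calls came with them. Array medians lay between 38.9 and 40.4 units, and arrays of a condition correlated at 0.994 to 0.997 across probe sets. A probe set was called higher or lower at a Benjamini-Hochberg adjusted p under 0.05 in a limma fit of all 8 arrays over all 45037 probe sets. Log2 fold changes are given with their standard error (SE). Of 8 macrophage markers, each read at its brightest probe set, none was below the array median on any array. Csf1r, Cd68 and Lyz2 were at 8432 units or more on every array, and the others were below that on some arrays. Another Csf1r probe set averaged 5625 units in M2 cells, 4119 units in M1 cells and 5674 units in M0 cells. In M2 cells 5 of the 8, Adgre1, Mertk, Fcgr1, Cd14 and Lyz2, were lower than in M0 cells and none was higher. Over all probe sets the share called lower was 5.85%. The largest difference was that of the Fc receptor gene Fcgr1, at 453 and 453 units in M2 cells and 3985 to 4950 units in M0 cells. In M1 against M0 cells 1 of the 8 was higher and 2 were lower, against 10.2% of all probe sets in each direction. In bulk RNA fewer cells of a type and less RNA per cell cannot be told apart.

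The 7 H2 genes lie together on chromosome 17, between 34092379 and 34316674 of GRCm38.p6, a span of 224.3 kb. Ctss is on chromosome 3 and Ciita on chromosome 16. Class II promoters are known for a shared set of short elements, among them an X box bound by RFX and a Y box bound by NF-Y, to which CIITA docks. RefSeq promoter windows on GRCm38.p6, from 250 bases before to 50 after a gene start, were at hand for 7 of the 10 genes. The stretches that follow are shown because they carry these elements in front of class II genes. These are genes with probe sets that rose in M2 cells and H2-Ob, which was not called there. H2-DMb2 is shown because it shares probe sets with H2-DMb1, and none of its own probe sets was called there. Each has 72 bases of the gene's own strand, 5′ to 3′, with the Y box letters TGATTGG in capitals and, where it was found in front of them, the X box letters AGNAAC in capitals.
H2-Aa (chr17:34287857-34287928, minus strand): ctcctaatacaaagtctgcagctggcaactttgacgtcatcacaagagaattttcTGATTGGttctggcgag
H2-Eb1 (chr17:34305751-34305822, plus strand): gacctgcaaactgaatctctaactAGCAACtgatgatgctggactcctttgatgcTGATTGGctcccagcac
H2-DMb1 (chr17:34153073-34153144, plus strand): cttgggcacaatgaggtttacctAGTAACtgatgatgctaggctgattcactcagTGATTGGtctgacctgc
H2-DMb2 (chr17:34145102-34145173, plus strand): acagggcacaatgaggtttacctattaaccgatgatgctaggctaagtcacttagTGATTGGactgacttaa
H2-Oa (chr17:34092279-34092350, plus strand): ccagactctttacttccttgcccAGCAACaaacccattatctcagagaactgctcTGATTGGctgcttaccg
H2-Ob (chr17:34238791-34238862, plus strand): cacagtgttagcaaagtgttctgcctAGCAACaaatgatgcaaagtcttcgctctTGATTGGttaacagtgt

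A stretch was shown only where TGATTGG was found on the gene's strand, so all 6 hold these letters by selection. On the gene's strand they stood in 4.01% of all 32851 windows, and on either strand in 7.82%. AGNAAC alone is common and stood in 48.1% of windows. AGNAAC followed on the same strand by TGATTGG, with 15 to 35 bases between, stood in 0.0913% of windows on the gene's strand and in 0.201% on either. It stood on the gene's strand in the windows of H2-Eb1, H2-DMb1, H2-Oa and H2-Ob, where 25, 26, 26 and 23 bases lay between. In H2-Aa and H2-DMb2 no exact AGNAAC was found at that distance. With 26 bases between, H2-Aa has ggcaac and H2-DMb2 has attaac, each off the pattern by a single letter. Missing these exact letters thus does not show that an X box is absent. H2-DMa had 2 windows and neither held TGATTGG. The letters were chosen after the sequences had been seen, so these shares are a description. The windows of H2-Eb1 and H2-Ob both held both elements. On the arrays, described further on, H2-Eb1 was called higher in M2 cells, and the dim H2-Ob was not called there. Whether the elements play a part in this was not tested.

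Ctss, whose expression set it apart from the class II chains, had neither the Y box nor the X box letters. Its window held 1 match to GAAANNGAAA, the pattern that interferon regulatory factors recognise, which stood on either strand in 3.44% of all windows. It is in capitals in these 52 bases before the gene start.
Ctss (chr3:95526734-95526785, plus strand): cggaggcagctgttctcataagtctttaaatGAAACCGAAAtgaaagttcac

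Most of these 10 genes were higher in cells given IL-4. In M2 cells 17 of the 20 probe sets were higher than in M0 cells and none was lower. They belong to 8 of the 10 genes, of which H2-DMb1 is counted only through probe sets shared with H2-DMb2. The 3 that were not called were the 2 of H2-Ob and that of Ctss. Over all probe sets the share called higher was 6.32% and the share called lower 5.85%. Every M2 array was above every M0 array at 17 of the 20 probe sets, against 21.5% of all probe sets. A rise of at least 2-fold was called for 13 of the 20, against 1.43% of all probe sets. The median log2 fold change of the 20 was 1.88, and that of all probe sets 0.01. The 3 class II chains and Cd74 rose 8.76-fold to 16.4-fold, the exchange subunits and Ciita less. The methods' t-test on log2 values takes each probe set's own spread over 5 arrays. Under it only Cd74 of the 20 kept an adjusted p under 0.05, as did 0.353% of all probe sets in that direction.

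LPS with IFN-γ gave a mixed picture. Of the 20 probe sets 13 were higher and 2 lower in M1 cells than in M0 cells, where 10.2% of all probe sets were called higher and also 10.2% lower. A rise of at least 2-fold was called for 5 of the 20, against 2.1% of all probe sets. These 5 were the 3 probe sets of H2-Ab1, 1 of H2-Aa and 1 of H2-Ob. The 2 lower probe sets were those of Ctss and 1 of Ciita. The median log2 fold change was 0.67 for the 20 and 0.01 for all probe sets. The methods' t-test on log2 values called 10 of the 20 higher and 2 lower. Of all 45037 probe sets it called 2588 higher, or 5.75%, and 2460 lower.

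M2 and M1 cells were also compared with each other. In M2 cells 14 of the 20 probe sets were higher than in M1 cells and 2 were lower, against 10.1% and 8.87% of all probe sets. A difference of at least 2-fold in favour of M2 cells was called for 9 of the 20, against 3.09% of all probe sets. The 2 lower probe sets were both of H2-Ob. The median log2 difference was 0.83 for the 20 and 0.00 for all probe sets. The methods' t-test on log2 values kept 2 of the 14, Cd74 and 1 of Ciita, and neither of the 2 lower ones. Of all 45037 probe sets it called 752 higher, or 1.67%, and 774 lower. These comparisons share arrays, so their counts are not independent.

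**Figure D1:**
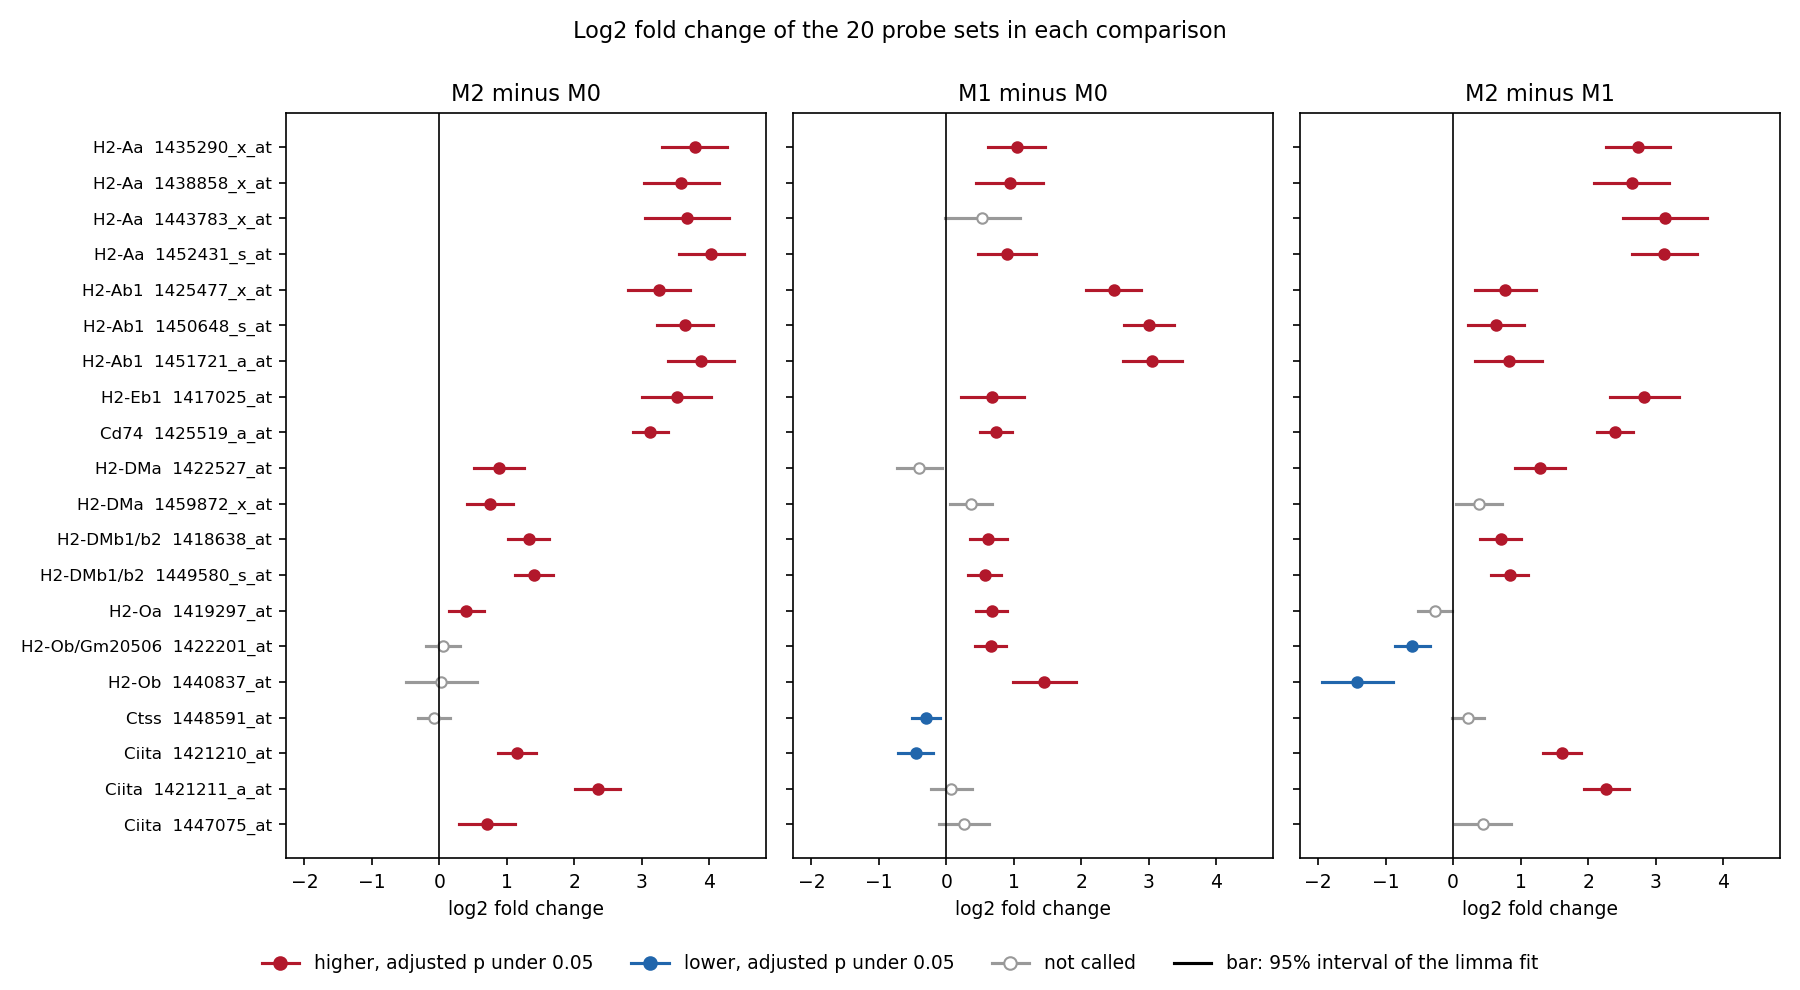
Log2 fold change of the 20 probe sets in M2 minus M0, M1 minus M0 and M2 minus M1, with bars for the 95% interval of the limma fit. Filled points were called, 17 higher in M2 minus M0, 13 higher and 2 lower in M1 minus M0, and 14 higher and 2 lower in M2 minus M1.

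H2-Aa encodes the α chain of I-A, the class II molecule that C57BL/6 mice display. Its brightest probe set, 1435290_x_at, had 4268 and 7037 units in M2 cells, 681, 897 and 900 units in M1 cells, and 470, 315 and 424 units in M0 cells. The arrays of the 3 conditions did not overlap, with M2 highest and M0 lowest. The log2 fold change was 3.78 (SE 0.22, adjusted p = 3.35e-07) in M2 against M0 cells, a 13.8-fold difference. It was 1.04 (SE 0.20, adjusted p = 0.00196) in M1 against M0 cells and 2.74 (SE 0.22, adjusted p = 1.93e-06) in M2 against M1 cells. The other 3 H2-Aa probe sets rose by 3.59 to 4.03 in M2 cells. In M1 cells 2 of these 3 rose, by 0.94 and 0.90, the first of which lost its call without M0 replicate 2 at 0.75. The dim 1443783_x_at, below the array median on every M1 and M0 array, was at 0.54 (adjusted p = 0.184).

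H2-Ab1, the β chain partner of H2-Aa, was high in both activated states. Probe set 1450648_s_at had 4278 and 5807 units in M2 cells, 3411, 2548 and 3857 units in M1 cells, and 430, 336 and 445 units in M0 cells. Every activated array was above every M0 array, and both M2 arrays were above all M1 arrays. Against M0 cells the log2 fold change was 3.64 (SE 0.19, adjusted p = 1.6e-07) in M2 cells and 3.01 (SE 0.17, adjusted p = 1.47e-07) in M1 cells. The rise in M1 cells was 8.05-fold, whereas H2-Aa rose 2.06-fold on the same M1 arrays. The other 2 H2-Ab1 probe sets rose by 3.26 and 3.88 in M2 cells and by 2.48 and 3.06 in M1 cells. M2 cells exceeded M1 cells by 0.63 (SE 0.19, adjusted p = 0.0369) at 1450648_s_at. That call was lost without M2 replicate 2 (0.41), M1 replicate 2 (0.46) or M1 replicate 1 (0.67), and those of the other 2 probe sets were lost without M2 replicate 2 (0.44 and 0.47) or M1 replicate 2 (0.59 and 0.65).

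H2-Eb1 encodes the β chain of I-E, the other class II molecule of the mouse, whose α chain C57BL/6 mice do not make. Its only probe set had 1900 and 3923 units in M2 cells, 357, 433 and 362 units in M1 cells, and 214, 230 and 273 units in M0 cells. M2 arrays stood far above the others, and M1 arrays were all above M0 arrays by a smaller step. In log2 terms the change was 3.52 (SE 0.24, adjusted p = 1.18e-06) in M2 against M0 cells and 2.84 (SE 0.24, adjusted p = 2.84e-06) in M2 against M1 cells. In M1 against M0 cells it was 0.69 (SE 0.21, adjusted p = 0.0372), a call lost without any one of 5 arrays, at 0.60 to 0.73: M0 replicates 1 and 2 and M1 replicates 1, 2 and 3.

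Cd74, the invariant chain, lies apart from the H2 genes on chromosome 18 and was bright in every condition. It had 15543 and 16406 units in M2 cells, 2910, 2867 and 3320 units in M1 cells, and 2031, 1655 and 1803 units in M0 cells. The 3 conditions did not overlap, and the M2 arrays lay close together. A log2 fold change of 3.13 (SE 0.12, adjusted p = 1.39e-08) was found in M2 against M0 cells, an 8.76-fold rise. In M1 against M0 cells it was 0.73 (SE 0.11, adjusted p = 3.67e-04), and in M2 against M1 cells 2.40 (SE 0.12, adjusted p = 3.7e-08).

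**Figure D2:**
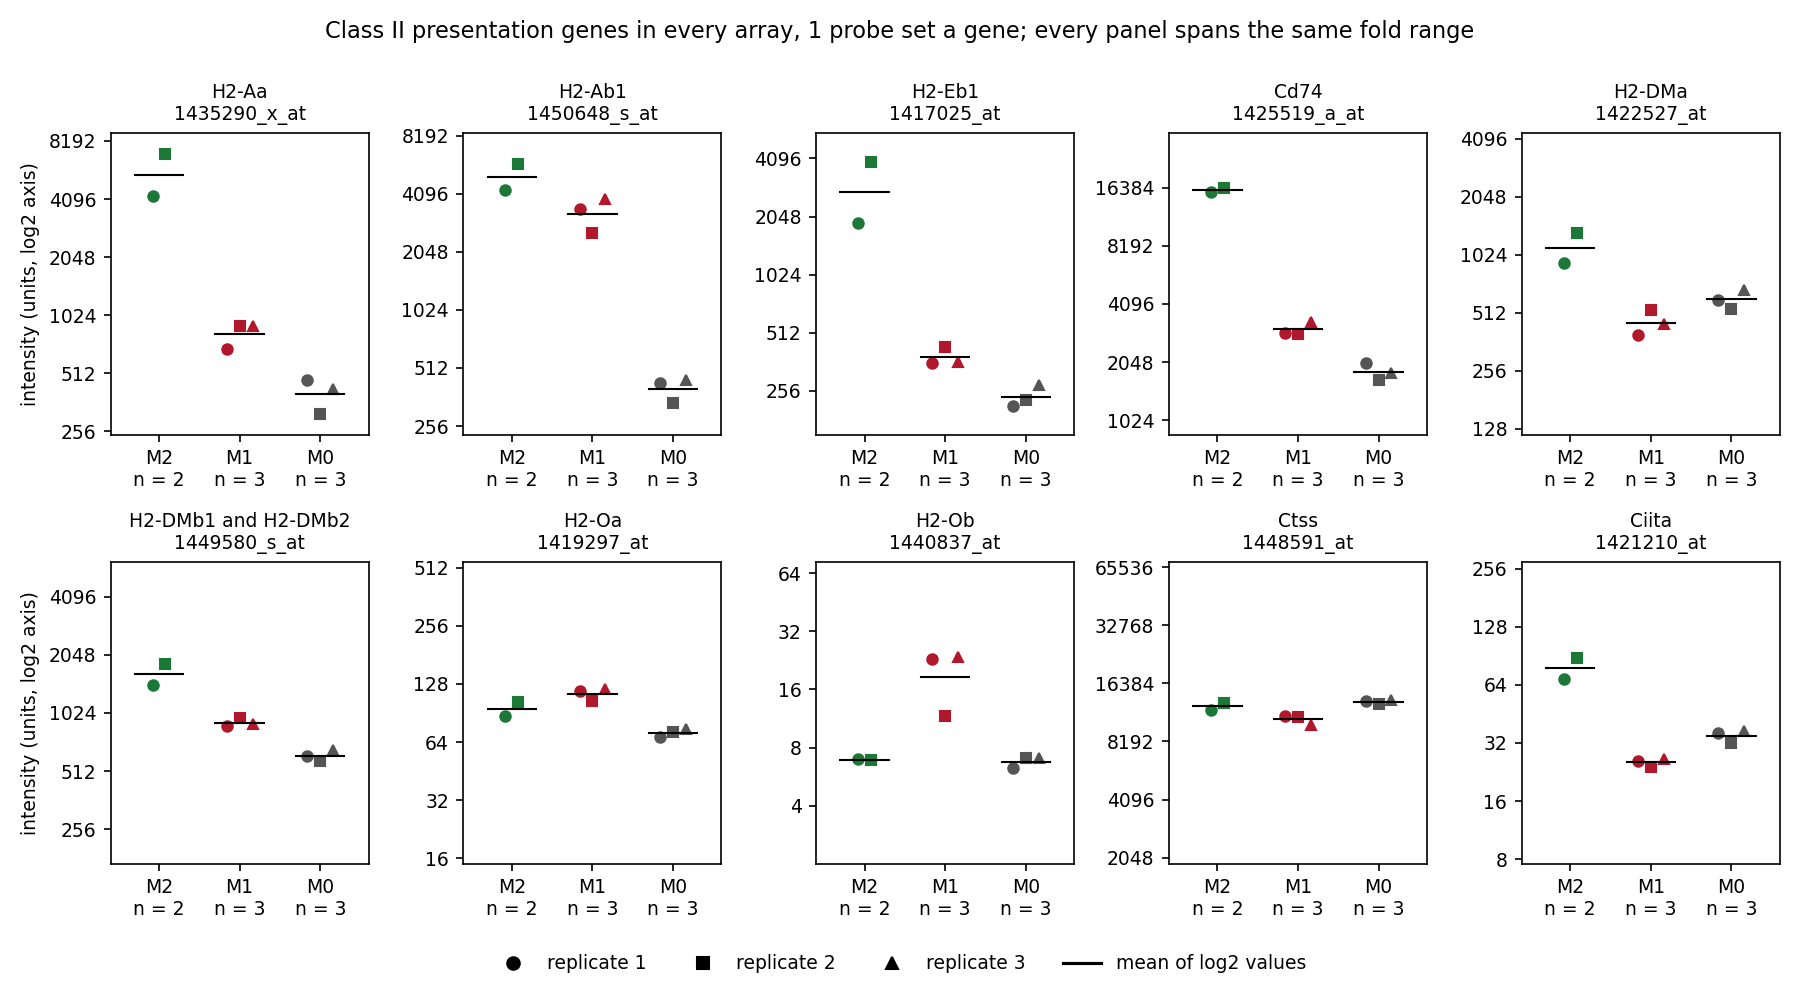
Intensity in units on a log2 axis for 1 probe set of each of the 10 genes in every M2, M1 and M0 array, with a line at the mean of the log2 values. H2-Aa, H2-Eb1 and Cd74 were highest in M2 arrays, H2-Ab1 was high in M2 and M1 arrays, H2-Ob was highest in M1 arrays, and Ctss was at 9967 to 13394 units throughout.

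The unequal response of the I-A chains was set out as a ratio within each array, the log2 of H2-Ab1 over H2-Aa at the probe sets above. Different probe sets bind with different efficiency, so the ratio is read only between arrays. It was 0.00 and -0.28 in M2 arrays, 2.33, 1.51 and 2.10 in M1 arrays, and -0.13, 0.09 and 0.07 in M0 arrays. M1 arrays were apart from all others. The mean ratio was higher by 1.97 in M1 than in M0 cells, and differed by -2.11 between M2 and M1 cells and by -0.15 between M2 and M0 cells. In a two-sided exact permutation test these gave p = 0.1, 0.1 and 0.4, or 0.3, 0.3 and 0.45 after adjustment over 9 ratio tests. With 3 arrays against 3 or 2 the smallest p the arrays allow is 0.1, so none of these could pass 0.05. The ratio of H2-Eb1 to H2-Aa differed by 0.09 to 0.36 in size between conditions, and that of Cd74 to H2-Aa by 0.31 to 0.65, with exact permutation p of 0.1 to 0.7.

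**Figure D3:**
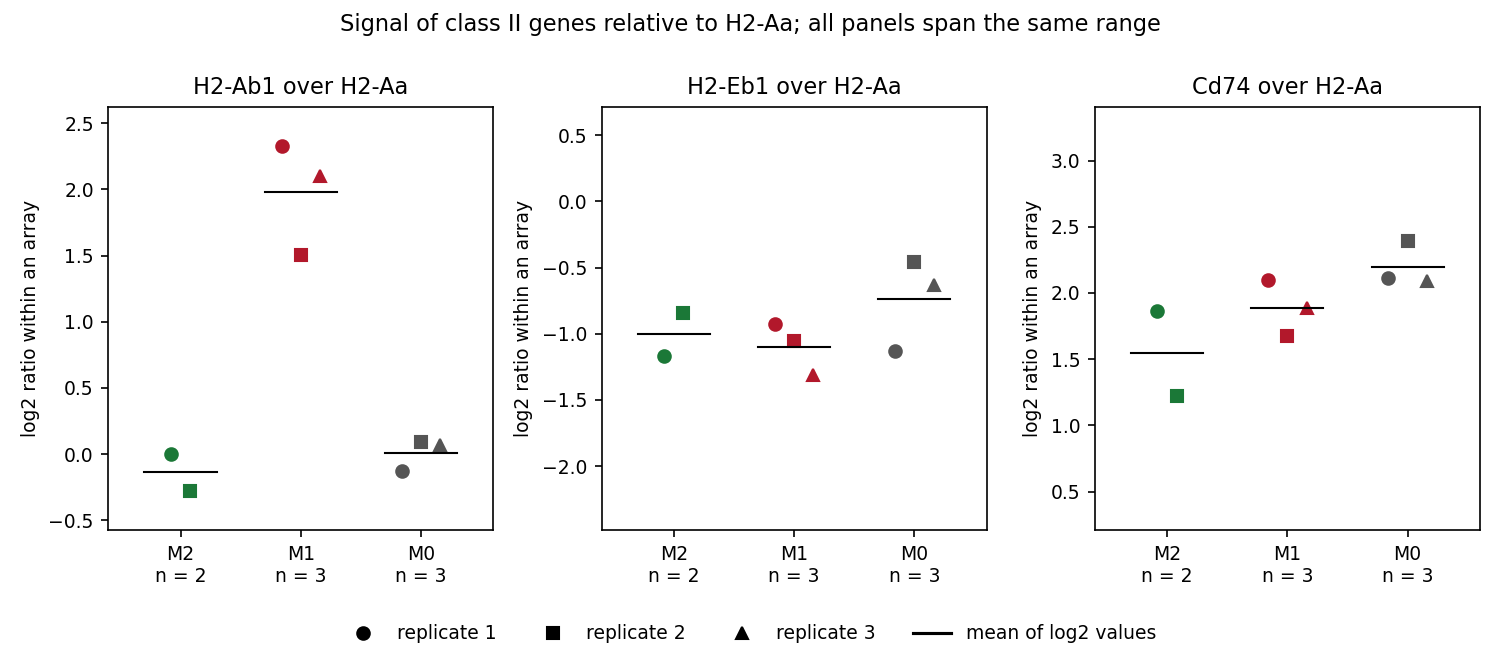
Log2 ratio of H2-Ab1, H2-Eb1 and Cd74 to H2-Aa within each M2, M1 and M0 array, with a line at the mean. The H2-Ab1 ratio was 1.51 to 2.33 in the 3 M1 arrays and -0.28 to 0.09 in all others, while the other ratios overlapped more.

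The exchange factor H2-DM responded less than the chains. H2-DMa, at probe set 1422527_at, had 931 and 1329 units in M2 cells, 394, 530 and 450 units in M1 cells, and 599, 538 and 671 units in M0 cells. M2 arrays were highest, and each M1 array was below each M0 array. The log2 fold change was 0.89 (SE 0.17, adjusted p = 0.00426) in M2 against M0 cells, and 0.63 with the call lost without M2 replicate 2. It was -0.40 (SE 0.15, adjusted p = 0.0911) in M1 against M0 cells, which did not pass, although it was called lower after a further quantile normalization (-0.46) and without M1 replicate 2 (-0.51). M2 exceeded M1 cells by 1.29 (SE 0.17, adjusted p = 1.41e-04). The second H2-DMa probe set, 1459872_x_at, rose in M2 cells by 0.75 (adjusted p = 0.00772; 0.43 and not called without M2 replicate 2). In M1 cells its value was 0.37 (adjusted p = 0.0948), of the opposite sign to the first probe set.

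The 2 probe sets shared by H2-DMb1 and H2-DMb2, the β subunits of H2-DM, moved alike. The brighter, 1449580_s_at, had 1438 and 1841 units in M2 cells, 877, 962 and 894 units in M1 cells, and 611, 574 and 659 units in M0 cells, with no overlap between conditions. The log2 fold changes against M0 cells were 1.41 (SE 0.13, adjusted p = 1.41e-05) in M2 and 0.57 (SE 0.11, adjusted p = 0.00314) in M1 cells, and 1.33 and 0.62 at the other probe set. H2-DMb2 has 3 probe sets of its own, and the brightest had 89.3 and 85.1 units in M2 cells, 77.8, 81.6 and 86.6 units in M1 cells, and 76.1, 69.2 and 74.0 units in M0 cells. None of the 3 was called in any comparison. Which of the 2 genes the shared signal came from was not resolved by these probe sets.

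The inhibitor H2-DO showed another order, with its signals highest in M1 cells. H2-Oa, the α subunit, had 87.0 and 103 units in M2 cells, 117, 105 and 121 units in M1 cells, and 68.3, 71.9 and 74.6 units in M0 cells. All activated arrays were above the M0 arrays, and M1 arrays above M2 arrays by a small step. The log2 fold change was 0.67 (SE 0.11, adjusted p = 5.53e-04) in M1 cells. In M2 cells it was 0.40 (SE 0.12, adjusted p = 0.0454), a call lost without M2 replicate 2 (0.28), M1 replicate 1 (0.40) or any M0 replicate (0.37 to 0.43). M2 and M1 cells differed by -0.27 (95% interval -0.53 to -0.01), with an adjusted p of 0.153.

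H2-Ob, the β subunit, was dim. Probe set 1440837_at, below the array median on every array, had 6.96 and 6.86 units in M2 cells, 23.0, 11.7 and 23.6 units in M1 cells, and 6.24, 7.03 and 7.03 units in M0 cells. The M1 arrays were above all others, with M1 replicate 2 nearer to them. The log2 fold change was 1.45 (SE 0.21, adjusted p = 3.43e-04) in M1 against M0 cells and -1.42 (SE 0.24, adjusted p = 9.95e-04) in M2 against M1 cells. The probe set shared with Gm20506 had 55.0 and 47.7 units in M2 cells, 84.3, 72.1 and 77.6 units in M1 cells, and 49.9, 51.2 and 46.7 units in M0 cells. It was higher by 0.66 in M1 than in M0 cells (adjusted p = 5.62e-04), and differed by -0.60 between M2 and M1 cells (adjusted p = 0.00258). Neither probe set passed in M2 against M0 cells, with 95% intervals of -0.49 to 0.55 and -0.20 to 0.31. H2-Ob is thus the one gene of the 10 whose probe sets were all called higher in M1 cells and lower in M2 than in M1 cells.

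Ctss, cathepsin S, was bright throughout. It had 11890 and 13020 units in M2 cells, 11144, 10991 and 9967 units in M1 cells, and 13245, 12858 and 13394 units in M0 cells. M1 arrays were below the M0 arrays, and M2 arrays overlapped with M0 arrays. In M1 against M0 cells it stood at -0.30 on the log2 scale (SE 0.10, adjusted p = 0.0440). That call was lost when any single M1 or M0 array was left out (-0.25 to -0.33), and with median centring (-0.27) or a further quantile normalization (-0.22). In M2 against M0 cells the value was -0.08 with a 95% interval of -0.32 to 0.15, and in M2 against M1 cells 0.22 with one of -0.01 to 0.45. Intervals are narrow here, and a change of 2-fold lies outside all of them.

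Ciita, the transactivator, was dim and rose in M2 cells. Probe set 1421210_at had 68.7 and 88.2 units in M2 cells, 25.9, 23.9 and 26.6 units in M1 cells, and 36.1, 31.9 and 36.8 units in M0 cells. Probe set 1421211_a_at had 94.0 and 131 units in M2 cells, 20.2, 22.7 and 26.4 units in M1 cells, and 22.3, 22.4 and 20.7 units in M0 cells. At both, M2 arrays were apart from the rest, and all M1 and M0 arrays were below their array median, so a fold against them compares with values near the bottom of the scale. The log2 fold change in M2 against M0 cells was 1.16 (SE 0.13, adjusted p = 8.37e-05) at the first and 2.35 (SE 0.15, adjusted p = 9.49e-07) at the second. In M1 against M0 cells the first was lower at -0.46 (SE 0.12, adjusted p = 0.0138), a call lost without M0 replicate 3 (-0.42) or M1 replicate 2 (-0.41), and the second was at 0.08 (adjusted p = 0.788). No Ciita probe set was called higher in M1 cells after 24 h, where H2-Ab1 was 8.05-fold higher. The third probe set, 1447075_at, was below the array median on all 8 arrays, with 17.6 and 11.6 units in M2 cells. It was called higher in M2 than in M0 cells by 0.71 (adjusted p = 0.0307), a call lost without M2 replicate 1 (0.41), M0 replicate 2 (0.62) or M0 replicate 3 (0.73).

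The 2 M2 arrays did not carry the same class II level. Of the 17 class II probe sets with a mean of at least 64 units in M2 cells, all 17 were higher in M2 replicate 2 than in replicate 1, by a median of 0.51 and by 0.08 to 1.28 on the log2 scale. Of all 18042 probe sets as bright, 42.6% were higher in replicate 2, with a median of -0.04. The class II probe sets under 64 units, of H2-Ob and Ciita, were lower in replicate 2, at -0.21, -0.02 and -0.60. Over all 20 class II probe sets 17 were higher in replicate 2, or 85%, against 48.7% of all probe sets. A gap of over 0.5 in that direction was found for 9 of the 17, or 52.9%, and for 1.90% of all bright probe sets. The gap was widest for H2-Aa (0.72 to 1.28) and H2-Eb1 (1.05), and narrow for Cd74 (0.08) and Ctss (0.13). Probe sets of a gene share their RNA, so these are not independent values, and with 2 arrays the gap is a description. The 20 probe sets held 14 calls higher than M0 without M2 replicate 2 and 16 without M2 replicate 1.

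**Figure D4:**
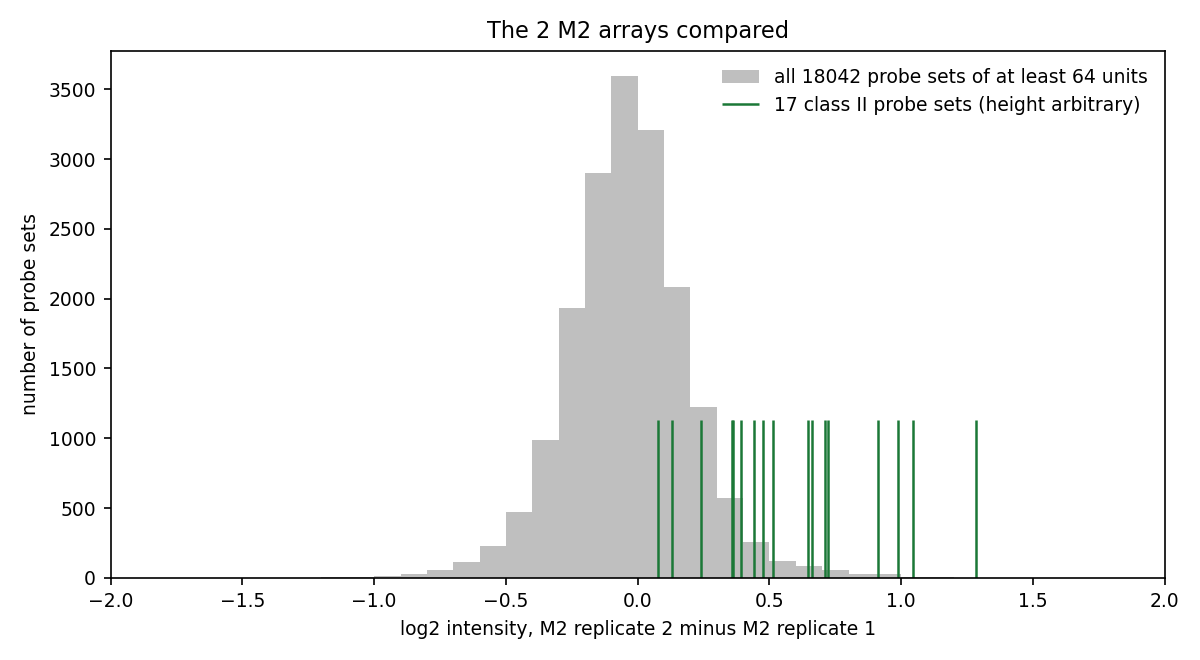
Log2 intensity of M2 replicate 2 minus M2 replicate 1, as a histogram of all 18042 probe sets with a mean of at least 64 units in M2 cells and as lines for the 17 class II probe sets among them. All 17 lines lie above 0, between 0.08 and 1.28, while the histogram is centred near 0. Class II probe sets under 64 units, which lay between -0.60 and -0.02, are not drawn.

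Other genes of the class II pathway were taken from a list of 22, all with a probe set of their own, read at the brightest. In M2 cells 3 were higher and 2 lower than in M0 cells and 17 did not pass, where 6.32% of all probe sets were higher and 5.85% lower. In M1 cells 6 were higher, 5 lower and 11 did not pass, where 10.2% of all probe sets were called in each direction. Between M2 and M1 cells 5 were higher in M2, 4 lower and 13 did not pass, against 10.1% and 8.87% of all probe sets. Counting a gene as called if any of its probe sets was, a rule added after the data had been seen, gave 4 higher and 4 lower in M2 against M0 cells, 7 and 6 in M1 against M0 cells, and 6 and 4 in M2 against M1 cells. The 22 genes have 53 probe sets, so this rule gives a gene more chances. The shares above do not apply to it, and no matching share is given here. The median log2 fold change of the list was 0.03 in M2 cells and -0.03 in M1 cells against M0 cells, close to the 0.01 of all probe sets in both. H2-Ea is the I-E α chain gene and a pseudogene in this strain. Its brightest probe set had 286 and 243 units in M2 cells, 234, 256 and 308 units in M1 cells, and 307, 282 and 256 units in M0 cells. The rest of its probe sets averaged 6.56 to 10.6 units over the conditions. None was called in any comparison.

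Among genes that handle antigen in endosomes, Ifi30, the thiol reductase GILT that unfolds antigen, moved in opposite directions. It had 3998 and 4643 units in M2 cells, 1310, 1587 and 1282 units in M1 cells, and 2603, 2814 and 2796 units in M0 cells, with no overlap. The log2 fold changes against M0 cells were 0.66 (adjusted p = 0.00450) in M2 and -0.98 (adjusted p = 4.87e-05) in M1 cells. Lgmn, the asparaginyl endopeptidase, fell in both, by 0.63 in M2 cells (adjusted p = 0.0101) and by 0.98 in M1 cells (adjusted p = 9.9e-05). At the brightest probe sets of other genes, Ctsl, which trims CD74 in thymic epithelium, fell by 0.48 and the cysteine protease inhibitor Cst3 by 0.84 in M1 cells, and the aspartic protease Ctsd by 0.40 in M2 cells. The probe sets of Ctsb, another endosomal cysteine protease, did not move alike. Its brightest averaged 18032 units in M2 cells, 16864 units in M1 cells and 19329 units in M0 cells, and neither it nor the next brightest was called. The other 3 of its 5 probe sets were lower in M1 than in M0 cells, at -2.23, -1.65 and -2.73, and 2 of these were lower in M2 than in M0 cells, at -0.43 and -1.28. Why the probe sets differ was not tested. Another probe set of Ctsl was higher in M2 than in M0 cells, at 0.85.

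Sppl2a and Marchf1, which act on CD74 and on class II after assembly, rose in M1 cells. Sppl2a, the protease that removes the last membrane fragment of CD74, had 1106 and 1198 units in M2 cells, 3764, 2533 and 2658 units in M1 cells, and 1152, 1182 and 1466 units in M0 cells. Its log2 fold change was 1.22 in M1 cells (adjusted p = 9.11e-05) and -0.13 in M2 cells (adjusted p = 0.726). Of its other probe sets, 1 rose by 1.10 in M1 cells, and the other was at -0.03 there and was lower in M2 than in M0 cells at -0.52. Marchf1, the ubiquitin ligase that sends surface class II to degradation, had 376 and 397 units in M2 cells, 857, 749 and 846 units in M1 cells, and 299, 307 and 370 units in M0 cells. Its values were 1.33 in M1 cells (adjusted p = 3.66e-06) and 0.25 in M2 cells (adjusted p = 0.243). Both genes were lower in M2 than in M1 cells, at -1.35 and -1.08. Cd44, which partners CD74 as a receptor for MIF, rose by 0.90 in M2 cells and fell by 0.46 in M1 cells at its brightest probe set. In M1 cells its other probe sets were at -0.37, which was called, and at -0.04 and 0.06, which were not. In M2 cells these were at 0.89, 1.43 and 0.21, of which the last was not called. At their brightest probe sets the promoter factors Rfx5, Rfxank and Nfyb rose by 0.42 to 0.46 in M1 cells, and Creb1 by 0.57 in M2 cells. The other probe sets of Rfxank (0.14 and 0.17) and of Nfyb (0.39) were not called in M1 cells. Another Creb1 probe set was called higher in M2 cells, at 0.37, and the rest were not called there.

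Another list held 10 genes that induce or restrain class II, each with a probe set of its own. In M2 cells 4 were higher and 1 lower than in M0 cells, against 6.32% and 5.85% of all probe sets, with a median log2 fold change of 0.10. In M1 cells 3 were higher and 2 lower, against 10.2% of all probe sets in each direction, with a median of 0.09. The median over all probe sets was 0.01 in both comparisons. Irf4, a lymphoid and myeloid transcription factor induced by IL-4, had 301 and 372 units in M2 cells, 27.6, 27.6 and 22.6 units in M1 cells, and 22.6, 25.6 and 25.8 units in M0 cells. M1 and M0 arrays were below their medians, and the log2 fold change in M2 cells was 3.76 (adjusted p = 8.12e-09). Socs1, the feedback inhibitor of cytokine signalling, rose in both states, by 3.66 in M2 and by 2.86 in M1 cells. The IFN-γ receptor chains split in M1 cells, where Ifngr1 fell by 1.31 (adjusted p = 1.97e-05) and Ifngr2 rose by 1.38 (adjusted p = 9.42e-06). Ifngr2 also rose by 0.52 in M2 cells. Irf1, an interferon-induced factor that acts on the Ciita gene, rose by 0.53 in M1 cells. Prdm1, a repressor of Ciita in plasma cells, rose by 0.80 in M2 cells (adjusted p = 0.0216), with 197 and 344 units there and 137 to 168 units in M0 cells. Irf8 fell by 0.68 in M2 and by 0.44 in M1 cells at its brightest probe set. Its other probe set fell by 0.61 in M2 cells and was at -0.19 in M1 cells, where it was not called (adjusted p = 0.229).

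**Figure D5:**
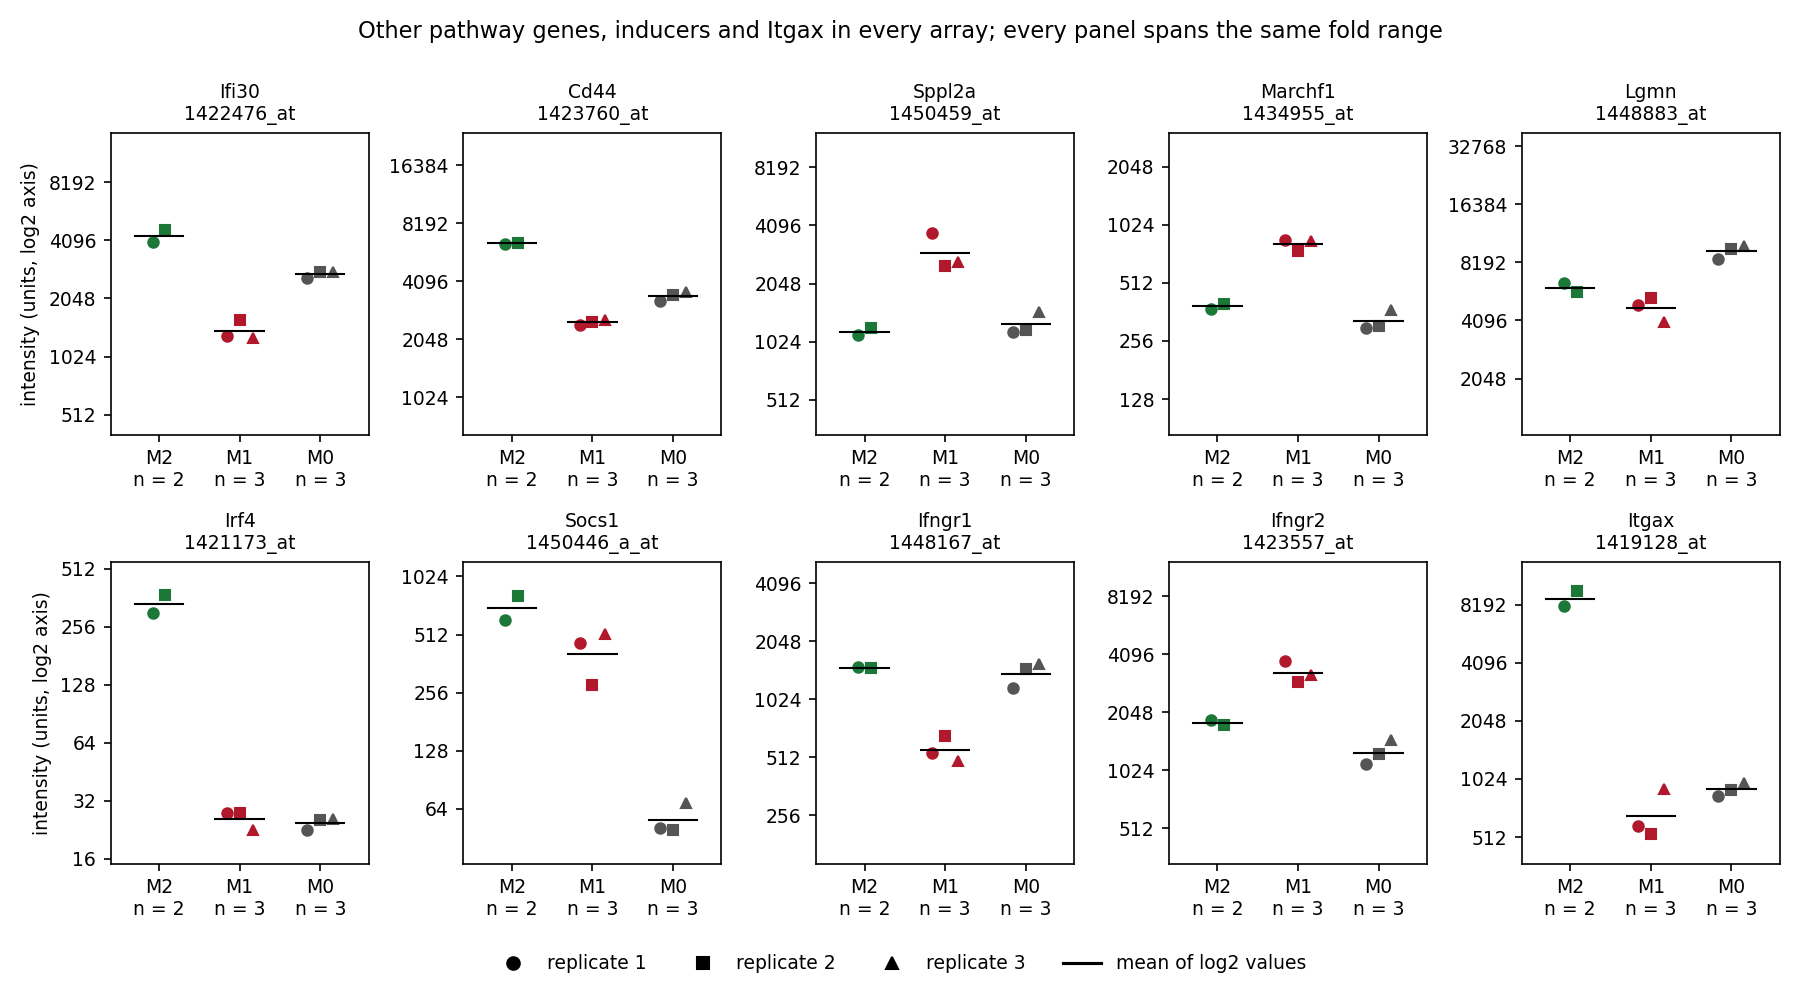
Intensity in units on a log2 axis of 5 other pathway genes, 4 inducers or restrainers and the dendritic cell marker Itgax in every M2, M1 and M0 array, with a line at the mean of the log2 values. Ifi30, Cd44, Irf4 and Itgax were highest in M2 arrays, Sppl2a, Marchf1 and Ifngr2 in M1 arrays and Lgmn in M0 arrays.

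Dendritic cells and B cells express class II strongly, so their markers are set beside these results. Of 9 dendritic cell markers 8 were found. At the brightest probe set of each, 2 of the 8 were higher in M2 than in M0 cells, against 6.32% of all probe sets. Counting any probe set, 3 were, a rule that gives genes with more probe sets more chances and has no such share here. Itgax (CD11c) had 8095 and 9624 units in M2 cells, 587, 531 and 912 units in M1 cells, and 840, 902 and 977 units in M0 cells, a log2 fold change of 3.29 in M2 cells. The transcription factor Batf3 rose by 3.04 in M2 cells and was lower in M1 than in M0 cells, at -0.68 (adjusted p = 0.00411). None of the 8 was higher in M1 than in M0 cells. The gene added by counting any probe set was Zbtb46, a transcription factor of conventional dendritic cells. Its brightest probe set averaged 70.0 units in M2 cells, 56.3 units in M1 cells and 51.8 units in M0 cells and was not called. Of its 4 probe sets, 2 dimmer ones were called higher in M2 than in M0 cells, 1454884_at by 1.54 (adjusted p = 3.44e-06), with 23.1 units on average in M2 cells and 7.92 units in M0 cells, and 1429168_at by 1.02 (adjusted p = 2.44e-04), with 32.4 units in M2 cells and 16.0 units in M0 cells. Both were also called higher in M2 than in M1 cells, the first by 1.58, and their means lay below the lowest array median of 38.9 units in every condition. Flt3, Xcr1, Cd209a, Dpp4 and Kmo were called in no comparison at any probe set, and Xcr1 and Cd209a were below the median on every array. The summed level of the 8 at their brightest probe sets was 9395 to 10816 units in M2 cells, 865 to 1229 units in M1 cells and 1206 to 1337 units in M0 cells, most of it Itgax. The part of such cells, or of macrophages that express these genes, in the M2 result was not tested. None of the 7 B cell markers found was higher in M2 or M1 cells, and their summed level was 236 to 237 units in M2 cells, 199 to 249 units in M1 cells and 250 to 283 units in M0 cells. None of the 4 T cell markers found was higher in either. Over all probe sets the share called higher than in M0 cells was 6.32% in M2 and 10.2% in M1 cells. Cd79b of the B cell list was lower in M1 cells, at -0.92, and Cd4 was lower in both, at -0.57 in M2 and -0.47 in M1 cells.

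The members were also compared by their pattern over the 8 arrays, which fall in 3 conditions, so that the correlations describe shared differences between conditions. With Cd74 as the reference, Pearson's r of log2 values was 0.99 for H2-Aa, 0.98 for H2-Eb1, 0.83 for Ciita, and 0.77 each for H2-Ab1 and H2-DMa. It was 0.34 for H2-Oa, -0.04 for Ctss and -0.16 for H2-Ob. Outside the 10 genes, the closest to Cd74 among 17384 probe sets were Cish at 0.995, Car2 and Gpc1, then Prep and Ptpre at 0.993, and 170 probe sets had an r over 0.95. Cish, a feedback inhibitor of STAT5 signalling, averaged 1314 units in M2 cells, 168 units in M1 cells and 95.2 units in M0 cells. Closest to Ctss were Cln3 at 0.993, Marcks, Med24, Raph1 and Bcl2l11 at 0.977.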

How the data were processed

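The study hybridized RNA of 8 cultures to Affymetrix Mouse 430 2.0 arrays. RMA, run by the authors in GenePattern (versions not given in the sources used here), made the deposited intensity values, which are on a linear scale. RMA corrects the background, gives the arrays 1 distribution and summarizes each probe set, so a shift common to most genes is removed and low values are compressed. Depth has no meaning here, and the number of arrays limits the precision.

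From the 45101 probe sets 64 control probe sets were left out. Log2 intensities of the other 45037 were fitted with limma 3.58.1 in R 4.3.3 (lmFit and eBayes, a mean per condition, 5 residual and 6.95 prior degrees of freedom), two-sided, with Benjamini-Hochberg adjustment over all of them. Of these, 34945 carry 1 symbol in the platform annotation and 932 several. Promoter windows and gene positions came from RefSeq. Figures were drawn with matplotlib 3.10.9. The procedure was tested on simulated data.

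The members and lists were chosen with earlier results of these data known. All probe sets of the 10 genes are described, and a gene of another list is read at its brightest probe set. Counting it as called at any probe set was chosen after seeing the data. Of the 22 other pathway genes and 10 inducers described, those with the 5 largest changes in each list and those with a stated role were named, and for likeness the 5 closest genes. The other settings tried were a t-test as in the study's methods on both scales, limma on just the conditions in a comparison, robust variances with an intensity trend, a replicate block, median centring, quantile normalization, a limit of 64 units as a filter or floor, stricter thresholds, arithmetic means, 1 probe set a gene and each array left out. Array titles share replicate numbers, but no source says that a number marks 1 mouse. A listed inducer is not reported here.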

Additional observations from a re-analysis of the deposited data

How the results depend on the processing

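Of 1074 single values recomputed, 927 kept their direction and side of the threshold, 130 lost a call, 13 gained one and 4 changed sign. None of those 4 was called: for H2-Ob 1422201_at, M2 minus M0, the value ranged from -0.0475 (without M2 replicate 1) to 0.16 with each array left out. For H2-Ob 1440837_at, M2 minus M0, the value was -0.00718 with quantile normalization and ranged from -0.0263 to 0.0605 with each array left out, and for Ciita 1421211_a_at, M1 minus M0, from -0.0239 to 0.171.

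The 17 probe sets higher in M2 than in M0 cells became 1 under the methods' t-test on either scale and 11 with a floor of 64 units. The 13 higher in M1 than in M0 cells became 7 with the floor and 5 at 2-fold. The 2 lower in M1 cells became 1 under the t-test on linear values, with the replicate block, with median centring or with the floor, 0 at an adjusted p under 0.01 or at 2-fold, 0 to 2 with each array left out, and stayed 2, of 9, with 1 probe set a gene. The 14 higher in M2 than in M1 cells became 2 under the t-test on log2 values, 1 on linear values, 8 with the floor and 9 at 2-fold. The 2 lower became 0 under both t-tests and with the floor, and 1 with a filter at 64 units or at 2-fold. The causes were not tested.

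Arrays with the same replicate number deviated together at -0.172 to 0.0547 over 7 pairs, others at -0.150 to 0.190 over 14. No source says whether a number marks 1 mouse, so the numbers were not used as pairs. With the replicate block, 16 probe sets were higher in M2 than in M0 cells, 13 in M1 than in M0 cells and 15 in M2 than in M1 cells. The 2 M2 arrays and the lack of detection calls limit what can be said of dim probe sets such as those of Ciita and H2-Ob.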
